A study of Mus musculus with 4 samples.

Results

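The genes described here are those whose symbol begins with Kcn, the prefix of potassium channel subunits. All symbols of that form in the lists of 12408 genes were taken, and there were 32, of 94 protein-coding Kcn symbols in the GENCODE M21 annotation of the mm10 build. The other symbols are not analysed here. The 32 were sorted by role into pores of the cardiac repolarising and resting currents (13 genes), K2P background channels (4), calcium- and sodium-activated channels (5), other voltage-gated pores (5), 1 further inward rectifier and auxiliary subunits (4). RNA from hearts of C57BL/6 mice, 3 months old, had been sequenced in 4 libraries, 1 per group, and the labels do not give the number of mice behind a library. The library labelled cKO TAC came from mice with floxed alleles of WW45 (Sav1, a scaffold of the Hippo kinases) and a Cre recombinase driven by the alpha-MHC promoter, which is active in cardiomyocytes, taken 4 weeks after transverse aortic constriction (TAC), which narrows the aorta and loads the left ventricle with pressure. The library labelled cKO baseline came from that genotype without TAC, the CT TAC library from mice with the floxed alleles and no Cre after TAC, and the CT baseline library from such mice without TAC. All groups carried the floxed alleles. Below, cKO TAC and cKO baseline name the libraries so labelled. No group was labelled as sham-operated or as Cre alone, so operation and load cannot be told apart, nor can Cre and deletion.

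Potassium channels let the heart cell return to its resting voltage after each beat. Transient outward channels shape the early part of repolarisation, delayed rectifiers carry most of the rest, and inward rectifiers and background channels hold the resting voltage. In the mouse ventricle the transient outward and slowly inactivating currents dominate, and loss of potassium current with a longer action potential is a known feature of the hypertrophied heart. Auxiliary subunits set how many channels reach the membrane and how fast they open and close.

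With 1 library in each group, the 4 pairwise comparisons set single libraries side by side, without replicates and without p-values. There were 1772153 reads in cKO TAC, 1587840 in cKO baseline, 2064655 in CT TAC and 2796547 in CT baseline, recovered from the deposited log2 CPM (read counts scaled to library size). The median Kcn gene had between 11.5 and 27 reads per library, against 30 to 48 for the median of all listed genes, and 11 of the 32 had fewer than 10 reads in every library. A gene is said to pass in a pair when the deposited values were at least 2-fold apart and the 95% counting interval of the ratio (Clopper-Pearson) excluded 1. These intervals cover counting error only and leave out the variation between mice. Every listed gene was above 1 CPM in at least 2 libraries. Of the Kcn genes 23 were above it in all 4 and 5 in exactly 2, among them Kcnj15, Kcnk13, Kcnma1 and Kcnmb1. Such genes are listed through the libraries in which they are high, so part of their difference is given by the listing. The recovered reads were not whole in some library for Kcnd3, Kcnh2, Kcnip2, Kcnj11, Kcnj12, Kcnj3, Kcnk2 and Kcnn2, whose counts and intervals are therefore less certain. Exons of 14 of the 32 genes overlap another annotated gene, among them Kcnq1 with its antisense transcript Kcnq1ot1, and whether the counting used strand is not given in the sources used here. Sav1 itself had 46.2 CPM in the library labelled cKO TAC, 39.8 in that labelled cKO baseline, 35.4 in CT TAC and 49.3 in CT baseline. Under TAC its level was thus higher with the cKO label than with the CT label, and both ratio intervals between genotypes included 1. Every direction between genotypes below rests on the labels. All 7 cardiomyocyte markers (Myh6, Tnnt2, Tnni3, Actc1, Myl2, Ryr2 and Pln) were abundant in every library, while of the 4 atrial markers only Myl4 was listed, with 3 to 10 reads.

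In the CT pair, 7 Kcn genes were at least 2-fold lower in the TAC library, and the RefSeq table of GRCm38.p6 promoters holds a start site for Kcna5, Kcnj12, Kcnj2 and Kcnj3 among them. The others are Kcng2, Kcnk3 and Kcnn2. The 250 bases before those start sites are printed because these 4 genes were lower together in that pair and because the Hippo pathway acts through TEAD factors. The windows were searched on both strands for the TEAD core GGAATG (reverse complement CATTCC) and for the core of the GATA factors, GATAAG (reverse complement CTTATC), 2 motifs of different letters. Capitals mark a match.
Kcna5, chr6:126535556-126535805, minus strand: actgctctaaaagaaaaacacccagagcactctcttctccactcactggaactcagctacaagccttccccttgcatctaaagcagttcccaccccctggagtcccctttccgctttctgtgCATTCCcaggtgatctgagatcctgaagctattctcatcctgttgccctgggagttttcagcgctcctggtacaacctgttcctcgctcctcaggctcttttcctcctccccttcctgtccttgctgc
Kcnj12, chr11:61065554-61065803, plus strand: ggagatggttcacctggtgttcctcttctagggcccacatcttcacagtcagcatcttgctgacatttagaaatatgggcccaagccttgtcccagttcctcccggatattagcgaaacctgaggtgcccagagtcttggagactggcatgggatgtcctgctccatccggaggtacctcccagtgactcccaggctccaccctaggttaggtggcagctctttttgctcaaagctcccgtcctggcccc
Kcnj2, chr11:111065914-111066163, plus strand: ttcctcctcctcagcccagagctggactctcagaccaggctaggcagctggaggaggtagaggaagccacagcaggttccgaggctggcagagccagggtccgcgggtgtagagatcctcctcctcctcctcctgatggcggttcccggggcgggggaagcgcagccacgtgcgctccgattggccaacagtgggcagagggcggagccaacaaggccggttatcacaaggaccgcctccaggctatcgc
Kcnj3, chr2:55435720-55435969, plus strand: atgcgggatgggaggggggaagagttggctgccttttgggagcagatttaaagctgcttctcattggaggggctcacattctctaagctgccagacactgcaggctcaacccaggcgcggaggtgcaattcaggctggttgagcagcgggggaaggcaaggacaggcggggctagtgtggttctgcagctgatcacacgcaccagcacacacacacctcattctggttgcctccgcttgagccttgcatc
Only the Kcna5 window held a match among the 4, a TEAD core on the reverse strand that begins 128 bases before the start. Over all 26 windows of 22 Kcn genes in the table, 4 held the TEAD core (those of Kcna5, Kcnk13, Kcnk2 and Kcnn4) and 1 held the GATA core. Among all 32851 windows of the same length the shares were 12.6% for the TEAD core and 6.55% for the GATA core. The matches describe letters in these windows only.

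**Figure D1:**
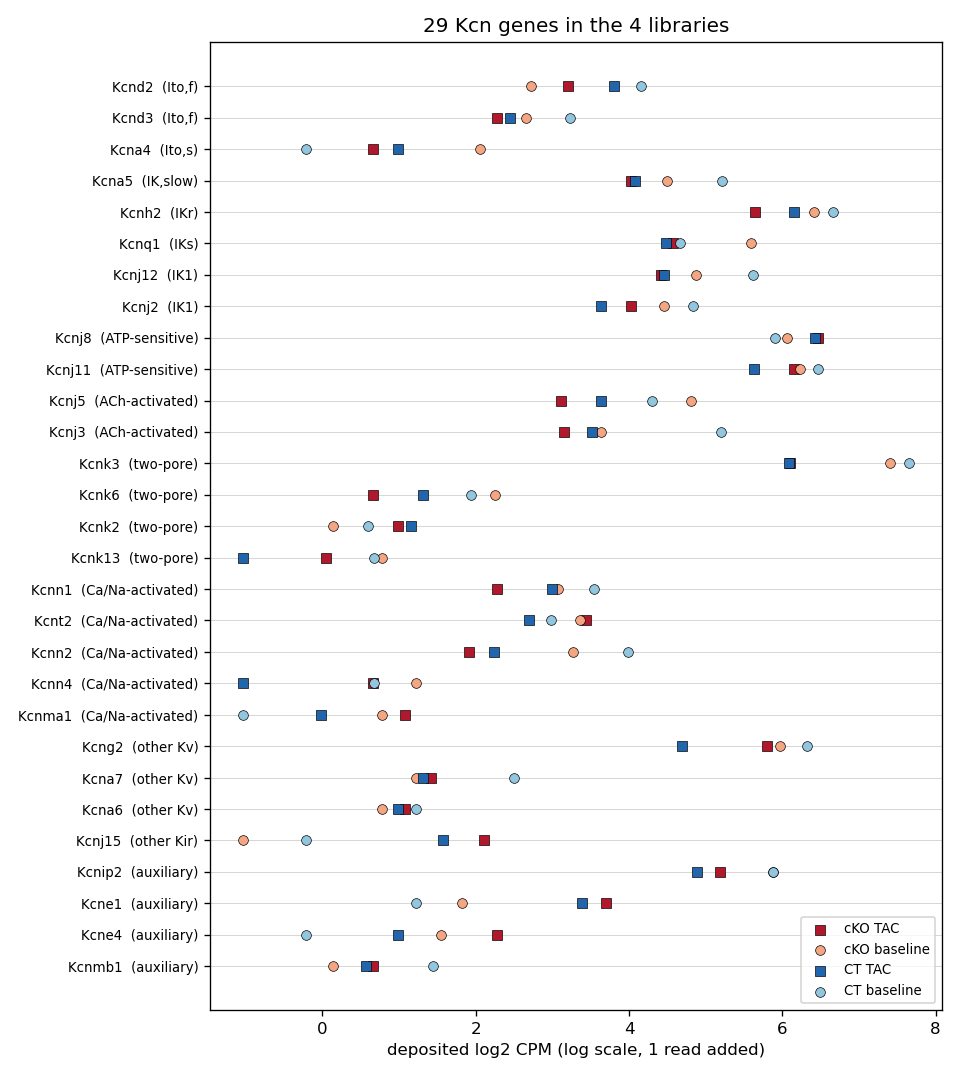
Deposited log2 CPM (x axis, log scale) of 29 Kcn genes (rows, with the current or class in brackets) in the 4 libraries. Red squares are the library labelled cKO TAC, light red circles that labelled cKO baseline, blue squares CT TAC and light blue circles CT baseline. In 17 rows both squares lie left of both circles, and in 4 rows (Kcne1, Kcnj15, Kcnj8 and Kcnk2) both lie right of them.

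Taken as a sum, the Kcn genes were lower in the TAC libraries than in the baseline libraries of both genotypes, with Kcnk3 the single gene called by limma. The summed level of the 32 genes was 544 CPM in cKO TAC against 765 in cKO baseline, a ratio of 0.711 (counting interval 0.654 to 0.774). In CT it was 498 CPM under TAC against 892 at baseline, a ratio of 0.558 (0.517 to 0.601). The CT baseline library was the highest of the 4 and CT TAC the lowest. Without Kcnk3, the ratios were 0.799 in cKO and 0.622 in CT. The summed level of the 7 cardiomyocyte markers was 84934 CPM in cKO TAC against 96515 in cKO baseline, a ratio of 0.88, and 111710 CPM in CT TAC against 112481 in CT baseline, a ratio of 0.993. The summed level of the 6 fibroblast markers was 3782 CPM in cKO TAC against 1820 in cKO baseline, and 3215 CPM in CT TAC against 1290 in CT baseline. Most of that sum is Dcn, with 2919 CPM in cKO TAC against 1392 in cKO baseline, and 2284 in CT TAC against 1072 in CT baseline. All 6 fibroblast markers had a log2 TAC ratio above 0 in CT. In cKO 5 did, and Dpt was below 0 at -0.45. The cardiomyocyte sum is mostly Myh6 and Actc1, and it does not show how most members moved. Of the 7 markers 6 had a log2 TAC ratio below 0 in each genotype, with medians of -0.22 in cKO and -0.28 in CT. Actc1 alone was above 0, at 0.04 in cKO and 0.55 in CT. Ryr2, the calcium release channel, had 1472 CPM in cKO TAC against 2453 in cKO baseline, and 1598 CPM in CT TAC against 2787 in CT baseline, and it fell in limma's fit, with a log2 effect of -0.77 (SE 0.17, adjusted p = 0.0477). The part of these marker shifts in the Kcn ratios was not tested, and in whole hearts fewer cells of a type and less RNA per cell cannot be told apart.

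**Figure D2:**
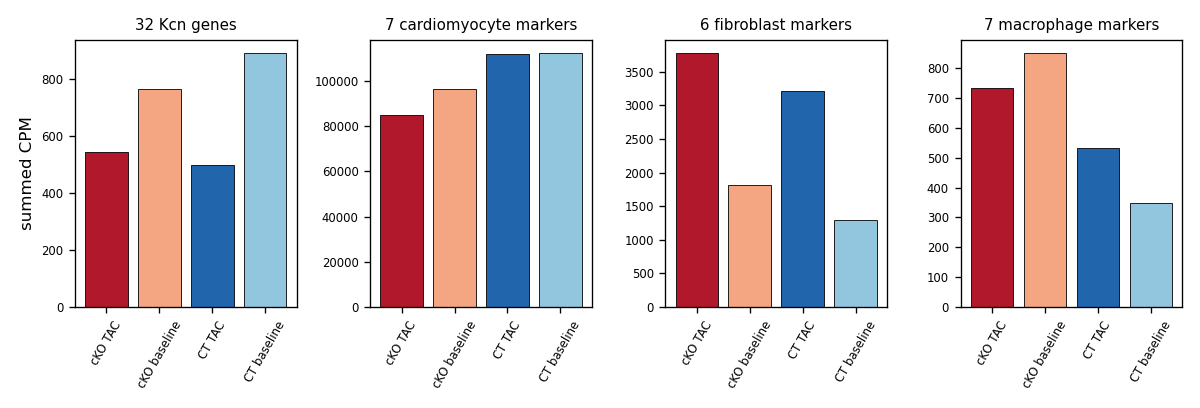
Summed CPM (y axes, each from 0) of the 32 Kcn genes, 7 cardiomyocyte, 6 fibroblast and 7 macrophage markers in the 4 libraries (bars, 1 library each, no error). The Kcn sum is 544 and 498 CPM in the TAC libraries of cKO and CT, against 765 and 892 CPM in their baseline libraries, while the fibroblast sum is higher in both TAC libraries.

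In the library labelled cKO TAC, 6 of the 32 genes passed against cKO baseline, 2 higher (Kcne1 and Kcnj15) and 4 lower (Kcnj5, Kcnk3, Kcnn2 and Kcnq1). Of all 12408 genes 6.51% passed in that pair, 3.68% higher and 2.83% lower. In the CT TAC library, 8 of the 32 passed against CT baseline, 1 higher (Kcne1) and 7 lower (Kcna5, Kcng2, Kcnj12, Kcnj2, Kcnj3, Kcnk3 and Kcnn2), where 10.7% of all genes passed, 6.04% higher and 4.68% lower. The lower calls thus made up 12.5% of the Kcn genes in cKO and 21.9% in CT. The median log2 ratio of the 32 genes was -0.44 in cKO and -0.80 in CT, and that of all genes lay at -0.00 and 0.01. A ratio below 0 in both genotypes was found for 19 of the 32 Kcn genes, against 30.7% of all genes, and a ratio above 0 in both for 6, against 31.4%. In these 19 each TAC library lay below each baseline library, as in 22.8% of all genes. In 4 Kcn genes each TAC library lay above each baseline library, as in 23.1% of all genes. A ratio below 0 was found for 62.5% of the Kcn genes in cKO and 78.1% in CT, against 50.2% and 49.1% of all genes.

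**Figure D3:**
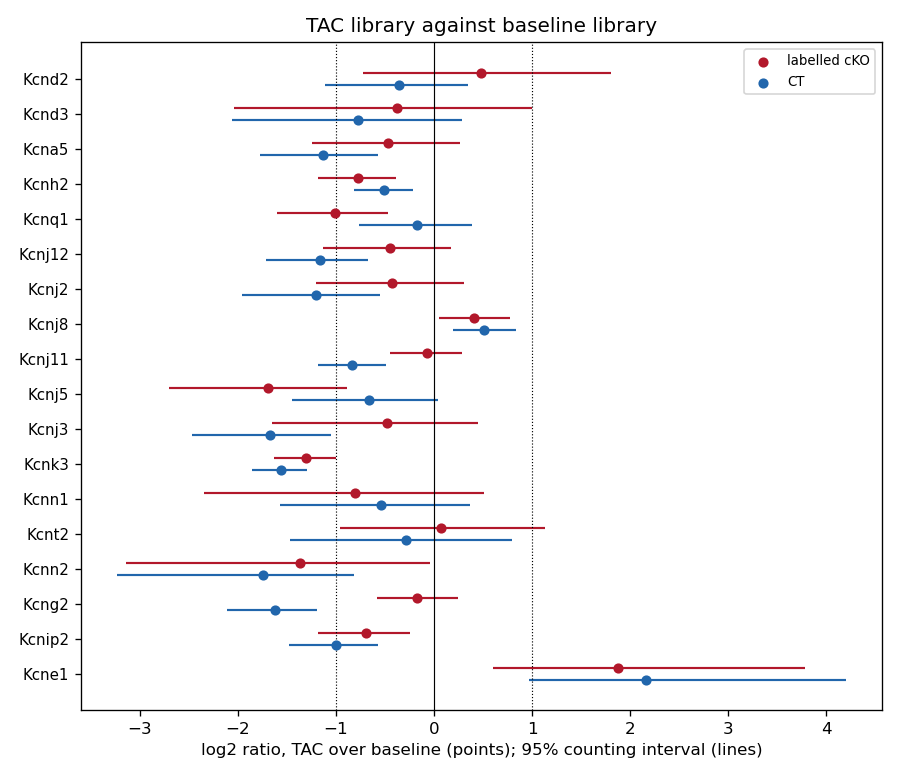
Log2 ratio, TAC over baseline (x axis; dotted lines at 2-fold) for 18 Kcn genes with a mean of at least 5 CPM, in the libraries labelled cKO (red) and in CT (blue), with 95% counting intervals as lines. Kcnk3 lies left of 2-fold in both genotypes, at -1.31 and -1.56, and Kcne1 right of it in both, at 1.87 and 2.16.

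Kcnk3, a K2P channel that carries an acid-sensitive background current, was the Kcn gene with the most reads in both baseline libraries. It lies on mm10 chromosome 5, 30588170 to 30625271, with exons that overlap those of Gm9899. Kcnk3 had 68 CPM (125 reads) in cKO TAC against 169 (276 reads) in cKO baseline, and 67.4 CPM (135 reads) in CT TAC against 200.2 (540 reads) in CT baseline. The TAC libraries of the genotypes lay side by side and far below both baseline libraries. The log2 ratio was -1.31 in cKO (ratio interval 0.323 to 0.499) and -1.56 in CT (0.277 to 0.407). In limma's fit over all 4 libraries with terms for genotype and surgery, Kcnk3 fell under TAC with a log2 effect of -1.43 (SE 0.19, Benjamini-Hochberg adjusted p = 0.00551). It was the single Kcn gene called, where limma called 1.82% of all genes, 1.3% higher and 0.524% lower. At an unadjusted p under 0.05 there were 15 Kcn genes, 3 higher and 12 lower, against 16.2% of all genes. The fit has 1 residual degree of freedom, which is the difference of the TAC response between the genotypes. With 1 library per group, its SE and p do not measure variation between mice. Without the mean-variance trend the adjusted p of limma was 0.313, and in fits without a genotype term it was 0.0554 without the CT TAC library and 0.226 without the CT baseline library. Over all alternatives it ran between 0.0026 and 0.313. Kcnk3 made up 12.5% of all Kcn reads in cKO TAC (interval 10.5% to 14.7%) against 22.1% in cKO baseline (19.8% to 24.5%), and 13.5% in CT TAC (11.5% to 15.8%) against 22.4% in CT baseline (20.8% to 24.1%). In both TAC libraries Kcnj8 was the member with the most reads instead. The other K2P genes were sparse: Kcnk6, Kcnk2 and Kcnk13 had at most 9 reads in any library and none passed.

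Kcne1, the auxiliary subunit that slows the opening of the Kcnq1 pore to form the slow delayed rectifier IKs, went the other way. It lies on chromosome 16, 92345982 to 92359468, and had 12.5 CPM (23 reads) in cKO TAC against 3.06 (5 reads) in cKO baseline, and 9.98 CPM (20 reads) in CT TAC against 1.85 (5 reads) in CT baseline. Both TAC libraries lay above both baseline libraries. The log2 ratios were 1.87 (log2 interval 0.60 to 3.78) and 2.16 (0.97 to 4.20), and the limma effect was 2.02 (SE 0.45, adjusted p = 0.0524), which missed the threshold of 0.05. Kcnq1, its pore partner, had 23.4 CPM in cKO TAC against 47.7 in cKO baseline, and 22 CPM in CT TAC against 24.8 in CT baseline. It stood apart in the library labelled cKO baseline, and the other 3 libraries lay close together. It passed in cKO (log2 ratio -1.01, ratio interval 0.33 to 0.72) and not in CT (-0.17, 0.59 to 1.31). Per kilobase of annotated exon, there were 0.681 Kcne1 reads for each Kcnq1 read in cKO TAC (interval 0.392 to 1.16) against 0.0816 in cKO baseline (0.0258 to 0.199), and 0.579 in CT TAC (0.323 to 1.0) against 0.095 in CT baseline (0.0299 to 0.233). These intervals do not overlap between TAC and baseline in either genotype. Exon lengths are those of GENCODE M21, and the authors' own annotation is not given in the sources used here.

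Among the other auxiliary subunits, Kcnip2, which binds the transient outward pores and is needed for that current, had 36 CPM in cKO TAC against 58.6 in cKO baseline, and 29.1 CPM in CT TAC against 58.6 in CT baseline. Both baseline libraries shared 1 level and both TAC libraries lay below it. Neither ratio passed the 2-fold rule (-0.69 in cKO and -0.998 in CT), and both intervals excluded 1 (0.44 to 0.845 and 0.359 to 0.672). In CT the gene lay at the threshold, and without the read that the authors added it passed at -1.01. Kcne4, an inhibitory partner of Kcnq1, had 8 reads in cKO TAC against 4 in cKO baseline and 3 reads in CT TAC against 1 in CT baseline. Kcnmb1, the smooth muscle subunit of the large calcium-activated channel, had 2 reads in cKO TAC against 1 in cKO baseline, and 2 reads in CT TAC against 6 in CT baseline. Neither passed in any pair.

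Neither listed pore of the fast transient outward current Ito,f passed between TAC and baseline. Kcnd2, the main pore of that current in the mouse ventricle (chromosome 6, 21215503 to 21729805), had 8.7 CPM (16 reads) in cKO TAC against 6.12 (10 reads) in cKO baseline, and 13.5 CPM (27 reads) in CT TAC against 17.4 (47 reads) in CT baseline. The TAC ratios were 0.48 in cKO and -0.36 in CT on the log2 scale, and both intervals included 1. Kcnd3, the other pore, had 4.35 CPM in cKO TAC against 5.81 in cKO baseline, and 4.99 CPM in CT TAC against 8.9 in CT baseline, and did not pass. Kcnd1 was not listed. Per kilobase, Kcnip2 had 6.14 reads for each Kcnd2 read in cKO TAC (3.5 to 11.3) against 14.2 in cKO baseline (7.41 to 30.6), and 3.2 in CT TAC (1.98 to 5.23) against 4.98 in CT baseline (3.58 to 7.06). Kcna4, the pore of the slow transient outward current Ito,s, had 2 reads in cKO TAC against 6 in cKO baseline, and 3 reads in CT TAC against 1 in CT baseline.

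For the slowly inactivating currents, Kcna5 (chromosome 6, 126532551 to 126535412) had 15.8 CPM in cKO TAC against 22 in cKO baseline, and 16.5 CPM in CT TAC against 36.7 in CT baseline. The TAC libraries were alike, and the CT baseline library stood highest. Kcna5 passed in CT (-1.13, ratio interval 0.293 to 0.672) and not in cKO (-0.47, 0.424 to 1.2). Kcnh2, the pore of the rapid delayed rectifier IKr, had 49.5 CPM in cKO TAC against 85 in cKO baseline, and 70.6 CPM in CT TAC against 100.5 in CT baseline. It lay lower under TAC in both genotypes by less than 2-fold (-0.77 and -0.51), and both intervals excluded 1.

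The inward rectifier IK1, which holds the resting voltage of ventricular cells, has Kcnj2 and Kcnj12 as its main pores. Kcnj2 (chromosome 11, 111066164 to 111076821) had 15.8 CPM in cKO TAC against 21.4 in cKO baseline, and 12 CPM in CT TAC against 28.2 in CT baseline. Kcnj12 (chromosome 11, 61022564 to 61071131) had 20.9 CPM in cKO TAC against 28.7 in cKO baseline, and 21.5 CPM in CT TAC against 48.6 in CT baseline. The genes had nearly the same TAC ratios as each other, -0.43 and -0.45 in cKO, where neither passed, and -1.20 and -1.16 in CT, where both did. Per kilobase, Kcnj12 had 2.63 reads for each Kcnj2 read in cKO TAC, 2.66 in cKO baseline, 3.55 in CT TAC and 3.41 in CT baseline, with intervals that all overlapped. Kcnj4, a further pore of this kind, was not listed.

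The ATP-sensitive channel has Kcnj11 as its pore in ventricular cells and Kcnj8 mainly in smooth muscle and pericytes. Kcnj8 was the one cardiac current pore above 0 in both genotypes, with 88.1 CPM in cKO TAC against 66.1 in cKO baseline, and 85.4 CPM in CT TAC against 59.7 in CT baseline. Its ratios of 0.41 and 0.51 did not reach 2-fold, and both intervals excluded 1 (1.04 to 1.72 and 1.15 to 1.78). Kcnj11 had 70.7 CPM in cKO TAC against 74.3 in cKO baseline, and 49.2 CPM in CT TAC against 87.8 in CT baseline, where the log2 ratio was -0.83 (0.44 to 0.714). Per kilobase, Kcnj8 had 1.8 reads for each Kcnj11 read in cKO TAC (1.42 to 2.28) against 1.28 in cKO baseline (0.977 to 1.67), and 2.51 in CT TAC (1.93 to 3.23) against 0.98 in CT baseline (0.797 to 1.2). The interval of CT TAC did not overlap that of CT baseline. The summed level of the 6 mural markers, which cover pericytes and smooth muscle, was 862 CPM in cKO TAC against 983 in cKO baseline, and 516 CPM in CT TAC against 618 in CT baseline, so the sum was lower in both TAC libraries. Within it, Rgs5, Acta2 and Myh11 were lower under TAC in both genotypes by less than 2-fold, with log2 ratios of -0.39, -0.28 and -0.70 in cKO and -0.47, -0.32 and -0.99 in CT. Pdgfrb was higher in both (0.45 in cKO and 0.37 in CT), and Cspg4 (-0.05 and 0.39) and Notch3 (0.26 and -0.20) differed in sign between the genotypes. The part of these cells in the Kcnj8 ratio was not tested.

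The acetylcholine-activated channel of atrial and nodal cells is built from Kcnj3 and Kcnj5. Kcnj3 had 8.43 CPM in cKO TAC against 11.9 in cKO baseline, and 11 CPM in CT TAC against 36.1 in CT baseline. The CT baseline library stood apart with 97.5 reads, and the other 3 libraries held 15.5 to 22. Kcnj3 passed in CT (-1.68, ratio interval 0.181 to 0.484) and not in cKO (-0.48, 0.318 to 1.37). Kcnj5 had 8.16 CPM in cKO TAC against 27.5 in cKO baseline, and 12 CPM in CT TAC against 19.3 in CT baseline. It passed in cKO (-1.70, 0.153 to 0.542) and not in CT (-0.66, 0.366 to 1.03). The partner genes thus differed in which baseline library was highest. Per kilobase, Kcnj3 had 0.928 reads for each Kcnj5 read in cKO TAC, 0.389 in cKO baseline (0.223 to 0.69), 0.824 in CT TAC and 1.68 in CT baseline (1.2 to 2.42). The atrial marker Myl4 had 10 reads in cKO TAC, 3 in cKO baseline, 10 in CT TAC and 7 in CT baseline. Its ratio interval included 1 in every pair, so these reads are too few to order the libraries. The part of atrial tissue in the Kcnj3 and Kcnj5 ratios was not tested. Myl7, Sln and Bmp10, which define atrial tissue, were not listed.

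Of the calcium- and sodium-activated channels, Kcnn2, a small-conductance calcium-activated pore, had 3.26 CPM (6 reads) in cKO TAC against 9.18 (15 reads) in cKO baseline, and 4.24 CPM (8.5 reads) in CT TAC against 15.4 (41.5 reads) in CT baseline. It passed in both genotypes, at -1.36 (ratio interval 0.113 to 0.97) and -1.75 (0.106 to 0.568), and limma's TAC effect was -1.56 (SE 0.42, adjusted p = 0.101). Kcnn1 and the sodium-activated pore Kcnt2 did not pass, with 8 to 30 and 12 to 20 reads. Kcnn4 and Kcnma1 had at most 3 reads in any library. Kcng2, a silent subunit that changes the channels it joins, was among the highest Kcn genes per length. It had 55.5 CPM (102 reads) in cKO TAC against 62.4 (102 reads) in cKO baseline, and 25.5 CPM (51 reads) in CT TAC against 79.3 (214 reads) in CT baseline. The CT TAC library alone lay low. The TAC ratio was -0.17 in cKO (0.669 to 1.18) and -1.62 in CT (0.232 to 0.437). Of the other voltage-gated pores, Kcna7 and Kcna6 had at most 14 reads in any library and neither passed. Kcnj15, an inward rectifier better known from kidney, had 7 reads in cKO TAC against 0 in cKO baseline, which makes it at least 2.07-fold higher when 3 reads are taken as the floor of a library, and 5 reads in CT TAC against 1 in CT baseline (ratio interval 0.753 to 318).

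**Figure D4:**
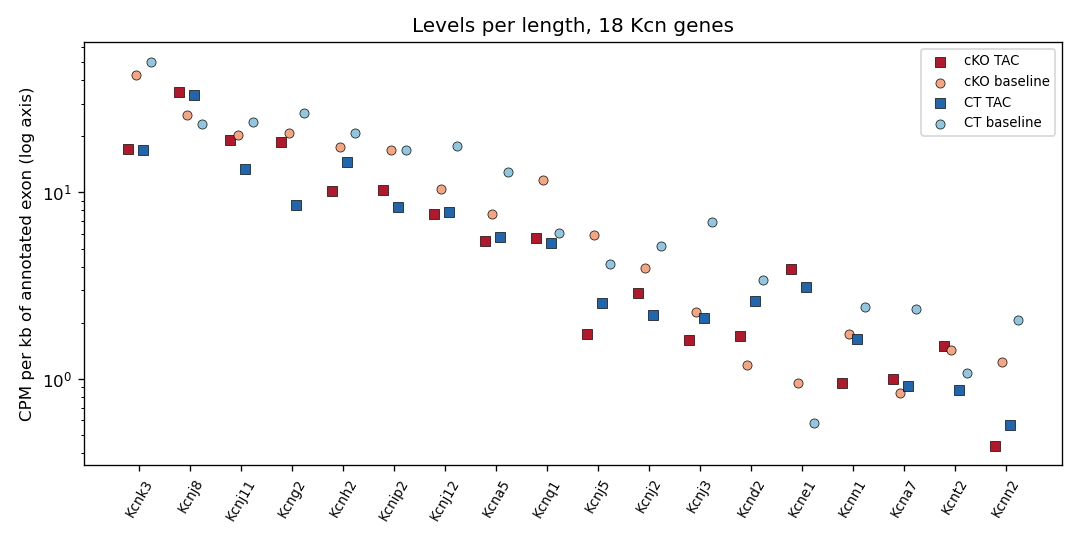
CPM per kilobase of annotated exon (y axis, log scale) of 18 Kcn genes with a high mean over the 4 libraries, in falling order of that mean, with the 4 libraries as points (squares TAC, circles baseline; red cKO, blue CT). Kcnk3 leads in both baseline libraries at 42.5 and 50.3, and Kcnj8 in both TAC libraries at 34.6 and 33.5.

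Per length, the order of the Kcn genes differed between TAC and baseline at its head. Kcnj8 led in the TAC libraries, with 34.6 CPM per kilobase in cKO TAC and 33.5 in CT TAC, against 25.9 in cKO baseline and 23.4 in CT baseline. Kcnk3 led at baseline, with 17.1 CPM per kilobase in cKO TAC and 17 in CT TAC, against 42.5 in cKO baseline and 50.3 in CT baseline. By their mean over the libraries these genes were followed by Kcnj11, Kcng2, Kcnh2, Kcnip2, Kcnj12, Kcna5 and Kcnq1. The points of neighbours in this order from Kcnj11 to Kcnip2 overlap across libraries, so their order is not separated by these data. Kcnma1, the large calcium-activated pore of smooth muscle, stood last at no more than 0.0961 CPM per kilobase.

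At baseline, 3 of the 32 Kcn genes passed between the library labelled cKO and CT, 1 higher (Kcna4) and 2 lower (Kcnd2 and Kcnj3). Of all genes 5.06% passed in that pair, 3.26% higher and 1.8% lower. The median log2 ratio of the 32 was -0.29, against 0.00 for all genes, and the summed Kcn level was 765 CPM against 892 (ratio 0.858, interval 0.8 to 0.918). The summed cardiomyocyte markers had the same ratio, 0.858, with Myh6 at 41570 CPM in cKO baseline against 57903 in CT baseline. The median log2 ratio of the 7 cardiomyocyte markers was -0.06, with 5 below 0 and 2 above. The macrophage markers were at 851 CPM in cKO baseline against 347 in CT baseline. The fibroblast markers were at 1820 CPM in cKO baseline against 1290 in CT baseline, with 5 log2 ratios above 0 and 1 below. The mural markers were at 983 CPM against 618, with Acta2 alone at 594 CPM in cKO baseline against 202 in CT baseline. The median log2 ratio of the 6 mural markers was 0.01, with 3 above 0 and 3 below. The part of these shifts was not tested. Kcnd2 had 10 reads in the library labelled cKO baseline against 47 in CT baseline (log2 ratio -1.44, ratio interval 0.158 to 0.704). Kcnj3 had 19.5 reads against 97.5 (-1.56, 0.197 to 0.549). Kcna4 had 6 reads in cKO baseline against 1 in CT baseline (2.27, 1.2 to 455). Kcna5, Kcnj12 and Kcnk3 were lower by less than 2-fold (-0.72, -0.75 and -0.25), and Kcnq1 was higher at 0.93 (1.37 to 2.7), each with an interval that excluded 1. The Kcnk3 interval ended close to 1 (0.727 to 0.977). Scaled to total reads Kcnq1 passed, at 1.02, and the Kcnk3 ratio moved to -0.15. Kcnip2 was level between the genotypes (0.00, 0.77 to 1.3). The CT baseline library is the denominator of this comparison and of the TAC comparison in CT alike, so a value that is high in it alone, such as that of Kcnj3, appears in both.

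**Figure D5:**
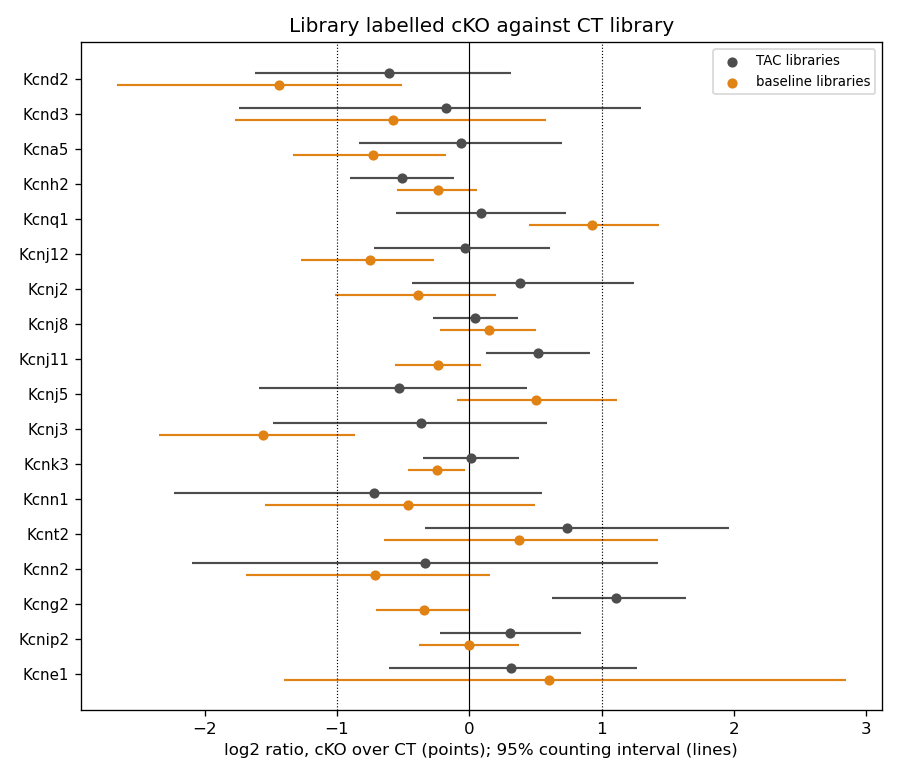
Log2 ratio of the library labelled cKO to the CT library (x axis; dotted lines at 2-fold) for 18 Kcn genes with a mean of at least 5 CPM, under TAC (grey) and at baseline (orange), with 95% counting intervals as lines. Kcng2 lies at 1.11 under TAC and at -0.34 at baseline, where its line just reaches 0. Most lines of the other genes cross 0.

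Under TAC, 1 of the 32 genes passed between the library labelled cKO and CT, the silent subunit gene Kcng2 with 55.5 CPM in cKO TAC against 25.5 in CT TAC (1.11, ratio interval 1.54 to 3.11). Of all genes 5.03% passed, 2.94% higher and 2.09% lower. The median Kcn ratio was 0.09, against 0.01 for all genes. The summed Kcn level was 544 CPM in cKO TAC against 498 in CT TAC (1.09, interval 1.0 to 1.2). The summed cardiomyocyte markers were at 84934 CPM against 111710 (ratio 0.76), and the mural markers at 862 CPM in cKO TAC against 516 in CT TAC. Within the mural sum, Acta2 alone had 490 CPM in cKO TAC against 161 in CT TAC. The median log2 ratio of the 6 mural markers was 0.14, with 4 above 0 and 2 below. The part of these shifts was not tested. Kcnd2, Kcnd3, Kcnj2, Kcnj12, Kcna5 and Kcnq1 all lay within 2-fold with intervals that included 1. Kcnh2 was lower (-0.51, 0.534 to 0.922) and Kcnj11 higher (0.52, 1.09 to 1.88), neither by 2-fold. Over both states limma called none of the 32 genes for genotype, with 3 at an unadjusted p under 0.05, against 0.0242% of all genes called, all 3 of them higher, and 7.77% at an unadjusted p under 0.05. Those 3 Kcn genes were Kcnd2 (-1.02, SE 0.38, adjusted p = 0.57), Kcnj3 (-0.96, SE 0.37, adjusted p = 0.576) and Kcne4 (1.53, SE 0.63, adjusted p = 0.608), each in the same direction in both states. They are named after their values were seen.

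The log2 TAC ratio was greater with the cKO label than in CT for 22 of the 32 genes, against 49.3% of all genes. The difference of the TAC ratios, cKO minus CT, had a counting interval (normal approximation) that excluded 0 for 3 of the 32 genes. The count was 2 higher and 1 lower. Of all genes 18.9% had such an interval, 9.07% higher and 9.83% lower, and the Kcn share did not exceed it. The shares were not matched for depth. The median Kcn gene had 11.5 to 27 reads per library against 30 to 48 for all genes, and fewer reads widen these intervals. The 3 Kcn genes were Kcng2 (1.45, 0.87 to 2.05), Kcnj11 (0.76, 0.26 to 1.24) and Kcnq1 (-0.84, -1.61 to -0.09). No test between mice exists for this difference, since a fit with an interaction leaves no residual degree of freedom.

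Among 17 genes of potassium channel complexes outside the Kcn symbols, 12 were listed. In cKO, 1 of the 12 passed as higher under TAC and none as lower, against 3.68% higher and 2.83% lower of all genes. In CT 3 passed as lower and none as higher, against 4.68% lower and 6.04% higher of all genes. Lrrc52 was the call in cKO and also 1 of the 3 in CT, in opposite directions. Abcc9, the sulfonylurea receptor that pairs with Kcnj8 and with Kcnj11, had 208 CPM in cKO TAC against 361 in cKO baseline, and 221 CPM in CT TAC against 453 in CT baseline. Its recovered reads were not whole. It passed in CT (-1.03) and not in cKO (-0.80), and it fell under TAC in limma's fit by 0.91 (SE 0.17, adjusted p = 0.0298). It was the single partner gene called, where limma called 1.82% of all genes. It did not follow Kcnj8, which was higher under TAC. The other receptor, Abcc8, had ratios of -0.58 and -0.27 and did not pass. Lrrc52, an auxiliary subunit of large-conductance channels, had 32 reads in cKO TAC against 4 in cKO baseline, and 5 reads in CT TAC against 264 in CT baseline. The CT baseline library alone carried most of its reads. Irx5, a transcription factor that sets the transmural pattern of Kcnd2, and its relative Irx3 did not pass in any pair.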

How the data were processed

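RNA from mouse hearts was sequenced in 4 libraries, 1 per group. Each deposited file lists genes with log2 CPM, a unit recognised from the numbers themselves. According to the submitters' processing notes the authors used CASAVA, HISAT2 and edgeR with mm10; versions, roles, counter, annotation and gene filter: not given in the sources used here. On the linear scale the deposited log2 values fall on a grid, and its step gives what 1 read was worth: 0.544 CPM in cKO TAC, 0.612 in cKO baseline, 0.499 in CT TAC and 0.371 in CT baseline. About 1 read, scaled by library size, had been added before the logarithm. Between 88.6% and 89.0% of genes per library came out as whole reads (tolerance 0.01). Since 2449 genes did not in at least 1 library, no count model was used.

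Log2 ratios are differences of the deposited log2 values and understate changes of low genes. Intervals came from rounded recovered reads, and printed CPM leave out the added read. Differences were also fitted with limma 3.58.1 under R 4.3.3, using its mean-variance trend and additive terms for genotype and surgery, over all 12408 genes, with Benjamini-Hochberg adjustment at 0.05. The interval and limma steps were tested on simulated data, and the limma simulation held genotype changes and no TAC effect. It therefore does not bear on the limma calls for TAC. Values in all libraries are given for cardiac current pores, auxiliary subunits and every member that passed or was called; ratios between members were chosen after their values were seen. The partner list includes Abcc8, Abcc9, Dpp6, Dpp10, Lrrc26, Lrrc38, Lrrc52, Lrrc55, Akap9, Dlg1, Nedd4l, Fhl2, Cav3, Irx3, Irx5 and Amigo1. Some genes that enter the counts and sums are not reported here by name or drawn. Markers of lymphocytes (none of 4 listed) and of neural and Schwann cells (2 of 6 listed, with at most 6.67 reads each) were at or near 0, and the 6 endothelial markers summed to 1237 CPM in cKO TAC, 1237 in cKO baseline, 1359 in CT TAC and 1427 in CT baseline. Members and lists were chosen with earlier results of these data known. Alternatives were total-read scaling, a mean of at least 5 CPM, no added read, members with whole reads, a 1.5-fold threshold and, for limma, no trend, 1 term, log2(CPM + 1) and each library left out.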

Additional observations from a re-analysis of the deposited data

Results flagged for a closer look

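The cKO to CT ratio of Kcng2 was 1.11 (log2) in the pair under TAC and -0.34 in the pair at baseline. The difference of 1.45 was beyond counting error. For Kcnj11 the ratios were 0.52 under TAC and -0.24 at baseline, a difference of 0.759 beyond counting error. Both baseline ratio intervals included 1, at 0.615 to 1.0003 for Kcng2 and 0.677 to 1.06 for Kcnj11. A reversed direction at baseline is therefore not shown for either gene. Each pair holds 1 library per side, and neither difference was tested between mice. Of all genes 18.9% had such a difference beyond counting error, against 3 of the 32 Kcn genes, which had fewer reads at the median.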

How the results depend on the processing

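Counts of passing Kcn genes stayed within 1.5 times, and median ratios kept their direction, under the alternatives run, with these exceptions. Among the 24 members with whole reads only, 5 passed in the CT TAC pair, where 8 did among 32, as fewer genes were tested. With a 1.5-fold threshold 6 passed at baseline between the genotypes, where 3 did at 2-fold. Limma's count for TAC was 0 in place of 1 without the trend, and it ran between 0 and 1 when each library was left out in fits without the genotype term. Limma's count for genotype was 0 under every alternative run. Total-read scaling moved the median of all genes by 0.09 (log2) in both genotype pairs and turned the sign of Kcna5 and Kcnj12 under TAC, at -0.06 and -0.04, to 0.03 and 0.06. Depth limits what can be seen in the 11 genes with fewer than 10 reads. No paired analysis was possible because each group holds 1 library and the labels give no replicate numbers.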
